A study of Mus musculus with 24 samples.

Results

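Plasmacytoid dendritic cells (pDCs), the dendritic cells known for secreting type I interferon, were examined in single-cell RNA-Seq of murine pancreatic tumors. A cell barcode was counted as a pDC when it held at least 1000 unique molecular identifiers (UMIs, counts of single RNA molecules), under 10% mitochondrial UMIs, at least 2 UMIs of Siglech, a lectin receptor of mouse pDCs, and at least 1 UMI of Bst2, an interferon-inducible surface protein. Barcodes with any Cd3d, Cd3e or Cd3g UMI, with C1qa, C1qb and C1qc together at 10 or more per 10000 UMIs, or with 5 or more UMIs of S100a8 and S100a9 were left out, which removed 13 of 155 candidates. This left 142 pDCs of 120912 barcodes over the depth and mitochondrial limits, or 0.117%. The 16 RNA libraries held 5 to 16 pDCs each, 72 in all in whole tumor libraries and 70 in Percoll libraries. The cells were thus chosen by their own UMIs of Siglech, Bst2 and the excluded genes, whose levels are not results.

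The mice were male C57BL/6 animals, 6 to 7 weeks old, bearing subcutaneous tumors of Panc02, a murine pancreatic cancer cell line grown in its syngeneic host. A vaccine, PancVAX, and antibodies against the T cell checkpoint receptors PD-1 and CTLA-4 were given alone or together, in 8 arms. The arms were labelled Isotype Control, Anti-PD-1, Anti-CTLA-4, Anti-PD-1 + Anti-CTLA-4, PancVAX, PancVAX + Anti-PD-1 and PancVAX + Anti-CTLA-4, and the arm with all 3 agents PancVAX + Anti-PD-1 + Anti-CTLA-4. PancVAX is a set of synthetic neoantigen peptides, 50 µg of each on days 12 and 19, given with the emulsion AddaVax and a STING agonist, so an effect of the peptides and an effect of these adjuvants cannot be told apart. Mice outside the vaccine arms were given PBS on those days. Each antibody dose was 100 µg. Anti-PD-1 started on day 12, the anti-CTLA-4 doses fell on days 15 and 22 per the labels, although the study's text also gives another second day, and isotype antibodies replaced them in the other arms. The study's text gives more than 1 day for the taking of the tumors. Each treatment had 1 library of cells from whole tumor and 1 of cells enriched on a Percoll density gradient. Both came from pooled mice, so the animals behind a library cannot be separated. Preparation and sequencing batch cannot be told apart.

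pDCs arise in the bone marrow under the transcription factor E2-2, the product of Tcf4, and circulate through lymphoid organs and tissues. They hold the endosomal receptors TLR7 and TLR9, which recognize viral or self RNA and DNA and, through MYD88 and IRF7, can drive large-scale secretion of interferon-alpha. In tumors they are known both for interferon production and for states in which they produce little of it and restrain T cells.

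The label was checked against the 3 given markers outside the rule. Tcf4 was detected in 137 of the 142 cells (96.5%), against 12.3% of T cells, 30.4% of macrophages and 79.4% of epithelial cells, so this gene alone did not set pDCs apart from tumor cells. Ccr9, the receptor for the gut and thymus chemokine CCL25, was detected in 124 pDCs (87.3%), against 0.461%, 0.310% and 0.109% of those types. Irf8, a transcription factor of the dendritic lineage, was detected in 96.5% of pDCs, 30.9% of T cells, 59.7% of macrophages and 4.40% of epithelial cells. All 3 genes were present in 120 pDCs (84.5%), 2 of them in 16 cells and 1 in 6 cells, and no pDC lacked all 3. Siglech itself had a UMI in 0.0611% of 18013 T cells, 0.117% of 22231 macrophages and 0.0436% of 59603 epithelial cells. Median depth was 5699.5 UMIs in pDCs, 4211 in T cells, 5851 in macrophages and 20618 in epithelial cells.

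Cells just inside the Siglech limit were less complete than the rest. Among 33 otherwise eligible barcodes with 1 Siglech UMI, which the rule left out, 30.3% had a Ccr9 UMI and 45.5% a Tcf4 UMI. Among the 12 pDCs with 2 or 3 Siglech UMIs these shares were 41.7% and 91.7%, and among the 130 pDCs with 4 or more they were 91.5% and 96.9%.

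Library totals ran from 7.71e+07 to 1.76e+08 UMIs, and the pDCs held 943872 UMIs together, with 1203 to 37316 in a cell. Of the markers of other cells, Cd79a and Ms4a1 of B cells, Trbc1 and Trbc2 of T cells, Jchain of plasma cells and Ccl22 and Ccl17 of mature dendritic cells were at 0 UMIs in all 142 pDCs. Other members of those lists were present. Of 10 B cell markers 4 had a UMI, 649 UMIs in all, of which Ighm and Cd79b gave 99.5%, and their sum was 5.28 to 11.5 per 10000 by pool, against 0.652 in other barcodes. Of 10 T cell markers 5 had a UMI (516 UMIs, 433 of them Cd8b1), and of 6 plasma cell markers 5 had one (578 UMIs, mostly Xbp1 and Mzb1). Of 11 markers of mature dendritic cells 8 had a UMI (263 UMIs). All 10 markers of conventional type 1 dendritic cells had a UMI (2412 UMIs, 2122 of them Irf8), and Clec9a had one in 74 pDCs. Among 10 markers of conventional type 2 dendritic cells 9 had a UMI (1548 UMIs), with Cd209a in 51 pDCs. Macrophage and monocyte markers had 2726 UMIs in 13 of 14 genes, 2061 of them Ly6c2. None of the 70 pDCs in Percoll libraries had a T cell receptor contig, against 12.9% of 62114 barcodes there. Scrublet called 6 pDCs doublets (4.23%, against 2.46% of all barcodes), and 24 pDCs carried a barcode sequence that also occurred in another library (16.9%, against 17.2%), none of them shared between pDCs. The 9 pDCs over 10000 UMIs stood apart as a group, and 5 of the 6 called doublets were among them. Their 12 pDC markers outside the rule summed to 28.6 per 10000 UMIs, against 94.98 in the other 133. One of them, a cell of 10108 UMIs that was not called a doublet, did not stand apart in this. It held 145 of these 576 UMIs, and the sum was 22.5 without it. Fibroblast markers summed to 12.9 against 0.539 and epithelial markers to 9.82 against 2.07. Endothelial markers summed to 8.78 against 1.99, but 1 cell of 26794 UMIs held 166 of these 177 UMIs, and the other 8 were at 0.629. Scrublet did not call that cell a doublet, but its library was the one without a threshold of its own and was called at the median of the others. NK cell markers summed to 4.12 against 0.243, with 79 of 83 UMIs in 1 cell of 18027 UMIs. Of the 9 cells, 8 lay in the libraries used for the comparison of dendritic cells. In the whole tumor library of PancVAX + Anti-CTLA-4 they held 37316, 18027 and 15936 of 151091 pDC UMIs. Counts without the 9 are given for the surface and identity, sensing, interferon-stimulated, early-response and endothelial lists. Counts of the other lists, and levels and fold changes unless stated, include them.

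Interferon-alpha transcripts were found in 1 of the 142 pDCs, and there they made up 5.96% of the cell's UMIs. The cell came from the Percoll library of the Anti-CTLA-4 group and held 222 interferon UMIs among 3708. Ifna1 had 78 UMIs, Ifna5 had 56, Ifna2 had 54 and Ifna4 had 28, with 3 of Ifna6 and 1 each of Ifna11, Ifna16 and the interferon-lambda gene Ifnl2. The other 141 pDCs had 0 UMIs of all 20 type I and type III interferon genes in the files, including Ifnb1. Cells with an interferon UMI were thus 0.704% of the pDCs of all 16 libraries together (exact 95% CI, 0.0178% to 3.86%, counting error only), which is a share of cells with a UMI and not of cells expressing the genes. Of the 120770 other barcodes, 966 (0.800%) had a UMI of these 20 genes. Ifne was found in 538 of these barcodes and Ifnz in 282, genes with 0 UMIs in pDCs, and 51 held an Ifna UMI. The Ifna genes are near-identical copies, so the division of UMIs among them is uncertain, while their sum of 221 is not affected by it.

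Outside the genes of the rule, this cell held 22 UMIs of the surface protein gene Ly6d, 2 of Tcf4 and none of Ccr9. Scrublet did not call it a doublet. Among 120770 other barcodes, 51 held an Ifna UMI, 3 of them held 10 or more, and the highest held 22. In its own library, 4 of 8798 other barcodes (0.0455%) held an Ifna UMI. Ifnb1 was found outside the pDCs, with 458 UMIs in 97 barcodes.

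Some genes induced by interferon were high in this cell. Of the 50 listed interferon-stimulated genes in the files, 21 had a UMI in it, 29 were at 0, such as Ifit3, Stat2, Irf1 and Cxcl10, and 6 lay above every other pDC. Ifit2, an inhibitor of viral translation, reached 37.8 per 10000 UMIs in it (14 UMIs), against 0.138 over the other 141 pDCs and 10.1 in the highest of them. Irf7, the factor that drives Ifna transcription, was also at 37.8, against 2.13 over the others and 21.9 in the highest. Rsad2, the antiviral enzyme viperin, was at 16.2 against 0.202 and 8.75. Each of these values lay above every other pDC. Isg15, an interferon-induced ubiquitin-like modifier, was at 24.3, with 19.1 in the highest other pDC. Ccl4, a chemokine that attracts T cells and monocytes, was at 337 (exact 95% CI, 281 to 402), against 27.4 over the others and 225 in the highest. Ifi27l2a, also induced by interferon, reached 56.6, and 2 other pDCs lay at or above that level. With 1 cell in 1 library there is no test, and no treatment can be compared on it.

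**Figure D1:**
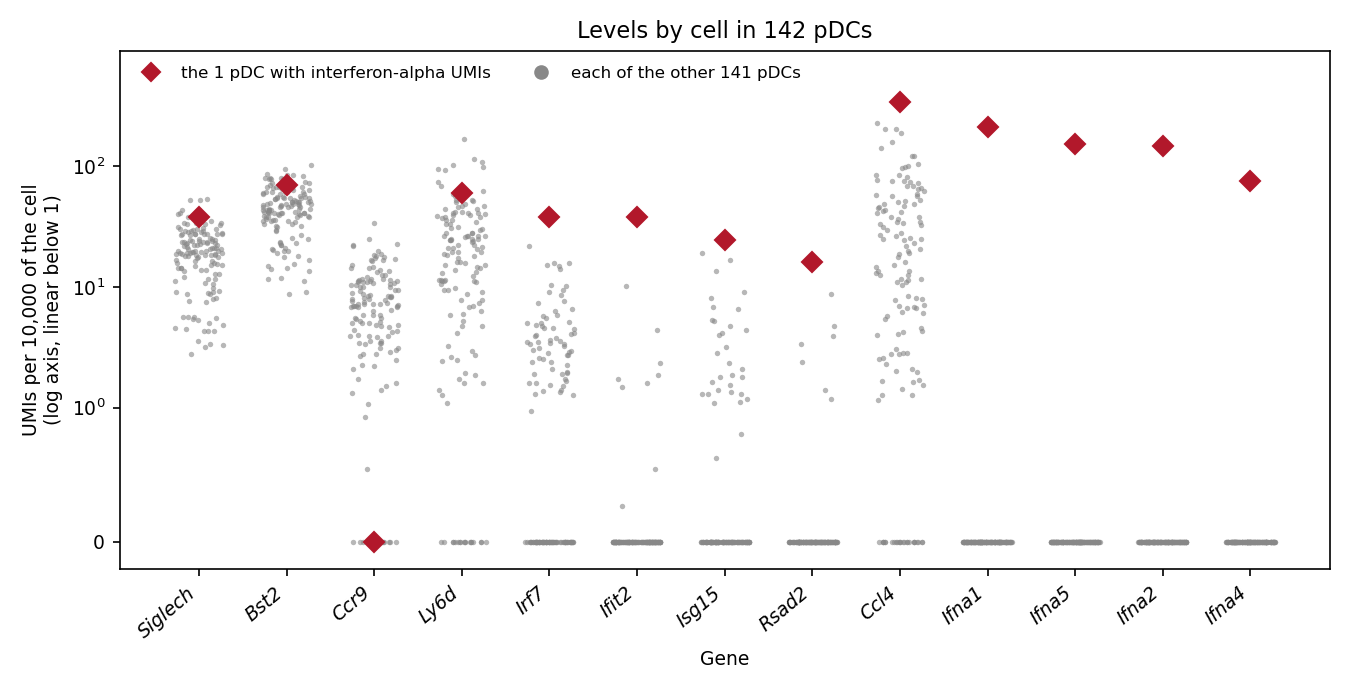
Level of 13 genes in each of the 142 pDCs, in UMIs per 10000 UMIs of the cell on a symmetric log axis. The diamond is the 1 cell with interferon-alpha UMIs and the grey points are the other 141. The 4 leading interferon genes are at 0 in every grey point, and Ccl4, Irf7, Ifit2, Isg15 and Rsad2 of the diamond lie above all grey points.

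The promoters of the 4 leading genes are shown because their proximal bases hold a shared interferon regulatory factor motif, the element through which IRF proteins are known to drive this family. Each line gives the 80 bases just before the first TATA-like run of letters upstream of the gene, 5′ to 3′ on the gene's strand, from the RefSeq promoter table on GRCm38.p6. Capitals mark the letters GAAANNGAAA, which were searched on both strands.

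Ifna1: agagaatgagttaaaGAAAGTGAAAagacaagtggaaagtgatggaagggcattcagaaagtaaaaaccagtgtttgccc
Ifna5: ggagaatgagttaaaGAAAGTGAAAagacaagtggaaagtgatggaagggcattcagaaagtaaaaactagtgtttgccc
Ifna2: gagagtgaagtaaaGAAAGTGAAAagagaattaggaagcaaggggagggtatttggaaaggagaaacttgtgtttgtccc
Ifna4: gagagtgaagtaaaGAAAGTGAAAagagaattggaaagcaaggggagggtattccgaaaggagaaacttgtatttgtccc

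The stretches lie at chr4:88849907-88849986 (plus strand) for Ifna1, chr4:88835345-88835424 (plus) for Ifna5, chr4:88683878-88683957 (minus) for Ifna2 and chr4:88841684-88841763 (plus) for Ifna4. Compared position by position with no gaps, Ifna1 and Ifna5 were identical at 78 of 80 bases (97.5%) and Ifna2 and Ifna4 at 75 (93.8%). In the other 4 pairs the motif starts at base 16 of one stretch and base 15 of the other. These pairs were identical at 32 to 35 bases as printed (40% to 43.8%) and at 60 to 63 of 79 bases with the motifs aligned (75.9% to 79.7%). In the 250 bases before the gene start, the motif was found in 11 of the 13 Ifna genes matched to the table, of 14 in the files, and in 978 of 32851 promoters overall (2.98%). A match is a description of letters and not a measurement of binding.

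To ask how tumor pDCs differed from other dendritic cells, UMIs were summed for each library with at least 10 cells of a group, giving 6 sums of pDCs, 16 of conventional type 1 dendritic cells (cDC1, 614 cells), 14 of conventional type 2 cells (cDC2, 301 cells) and 15 of mature dendritic cells (289 cells). The groups were formed from the cells' own UMIs of a few genes, which were left out of the tests, and genes that go with those genes differ by construction. A gene was called at an adjusted P below 0.05 in edgeR's quasi-likelihood test with Benjamini-Hochberg adjustment and an absolute log2 fold change above 0.5. Of 6571 genes, 31.6% were called against cDC1 (997 higher in pDCs, 15.2%, and 1077 lower, 16.4%). Against cDC2, 25.9% were called (723 higher, 11%, and 977 lower, 14.9%), and against mature cells 34.8% (1147 higher, 17.5%, and 1141 lower, 17.4%). The pDC sums came from both libraries of PancVAX + Anti-PD-1 and both of PancVAX + Anti-CTLA-4. The others were the whole tumor library of Isotype Control and the Percoll library of Anti-CTLA-4, so the other treatments gave no pDC sum. Libraries of the same treatment may share mice and entered as separate sums, so the sums may not be independent. All 3 comparisons use the same pDC sums. They called 465 genes (7.08%) higher in pDCs each time and 313 (4.76%) lower each time. The median log2 fold change over all genes moved from -0.06, -0.07 and 0.00 to 0.13, 0.09 and 0.14 with RLE scaling, with 1275 higher and 792 lower against cDC1, 907 and 710 against cDC2 and 1380 and 965 against mature cells. Levels below are UMIs per 10000 over the libraries. Values with ± are log2 fold changes with an SE worked back from the test. It is the absolute log2 fold change over the square root of the test's F statistic. This SE does not bound the size of a change where the other group has almost no UMIs.

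Of 25 tested genes of the pDC surface and identity list, 22 were higher and 0 lower against cDC1 and against cDC2, and 23 were higher and 1 lower against mature cells, with median log2 fold changes of 5.47, 5.15 and 6.63 beside medians over all genes of -0.06, -0.07 and 0.00. Without the pDCs over 10000 UMIs these counts were 22, 23 and 23 higher and 0 lower. Many listed genes are known markers of pDCs, so the list is a check of identity. Ly6d, a surface protein otherwise used to mark lymphoid progenitors, had a lowest, median and highest level of 8.80, 18.9 and 35.2 in pDCs and 15, 1 and 4 UMIs in all in cDC1, cDC2 and mature cells. Cox6a2, a subunit of cytochrome c oxidase, was at 11.8, 16.6 and 20.2 in pDCs, with 1, 0 and 1 UMIs elsewhere. Klk1, a kallikrein protease, was at 6.70, 11.7 and 15.9 in pDCs and had 0 UMIs in all 3 other groups, at least 4.21e+03-fold, 1.35e+03-fold and 1.01e+03-fold higher when the other group is set to 3 UMIs. The kallikreins are similar copies, so reads may be divided between Klk1 and its neighbors. Every pDC library lay above every other library for these 3 genes. The DESeq2 test did not call Klk1 or Cox6a2 in any of the 3 comparisons, at adjusted P values of 0.0621 to 0.139.

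Ccr9 was at 4.70, 7.25 and 9.39 in pDCs, against medians of 0.104 in cDC1 and 0 in cDC2 and mature cells (5.47 ± 0.24, 7.24 ± 0.30 and 9.33 ± 0.38). Lair1, an inhibitory receptor for collagen, was at 3.73, 4.22 and 6.60 and was called in each comparison, at log2 fold changes of 7.46, 3.39 and 6.58. Lag3, an inhibitory receptor that binds MHC class II, was detected in 78.2% of pDCs at 1.53, 2.85 and 4.64, and was called at 4.21, 5.15 and 6.76. Cd7, a surface protein of T and NK cells and of pDCs, was at 5.17, 7.28 and 9.97, with cDC2 the nearest group at 0.737, 1.74 and 3.95. Its log2 fold change was smaller against cDC2 (2.03 ± 0.22) than against cDC1 (8.68 ± 0.28) or mature cells (8.54 ± 0.35), although the groups did not overlap.

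Genes usually read as lymphocyte genes were present in pDCs, which had no Cd3 UMIs by the rule and 0 UMIs of Cd79a. Cd8b1, the beta chain of the T cell coreceptor CD8, was found in 69 pDCs (48.6%) with 433 UMIs and up to 31 in a cell. The same gene was found in 70.1% of T cells, 3.40% of macrophages and 3.03% of epithelial cells. Its level in pDCs was 1.92, 4.77 and 7.11, and its log2 fold changes were 8.94 ± 0.40, 8.21 ± 0.45 and 9.10 ± 0.50. Cd4 was found in 43 pDCs (30.3%) with 66 UMIs, against 10.4% of T cells and 11.6% of macrophages, and 22 pDCs (15.5%) held both Cd8b1 and Cd4. No library of another dendritic group reached the lowest pDC library for Cd8b1.

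A gene of antigen receptor rearrangement and immunoglobulin genes were detected as well. Dntt, the terminal transferase that adds bases at V(D)J junctions, was found in 59.9% of pDCs and in 0.128% of T cells, 0.0135% of macrophages and 0.0151% of epithelial cells. It was at 2.11, 3.42 and 3.77 in the pDC libraries, with 0 UMIs in cDC1, 1 in cDC2 and 0 in mature cells. DESeq2 did not call it in any comparison, at adjusted P values of 0.128 to 0.257. Iglc3, an immunoglobulin lambda constant gene with similar copies, was found in 73.9% of pDCs and 0.205% of T cells, and was at 3.48, 4.46 and 9.72. Ighm, the heavy chain of IgM, was found in 95.1% of pDCs but also in 44.6% of macrophages, and was at 4.41, 5.83 and 9.14. Its log2 fold changes were 2.71, 2.97 and 6.51. Il7r, the interleukin 7 receptor of lymphoid cells, was found in 74.6% of pDCs and was at 1.81, 2.85 and 3.37. It was called against all 3 groups, at 8.55, 4.34 and, against mature cells, 1.26 ± 0.32 (adjusted P = 0.00166, edgeR).

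**Figure D2:**
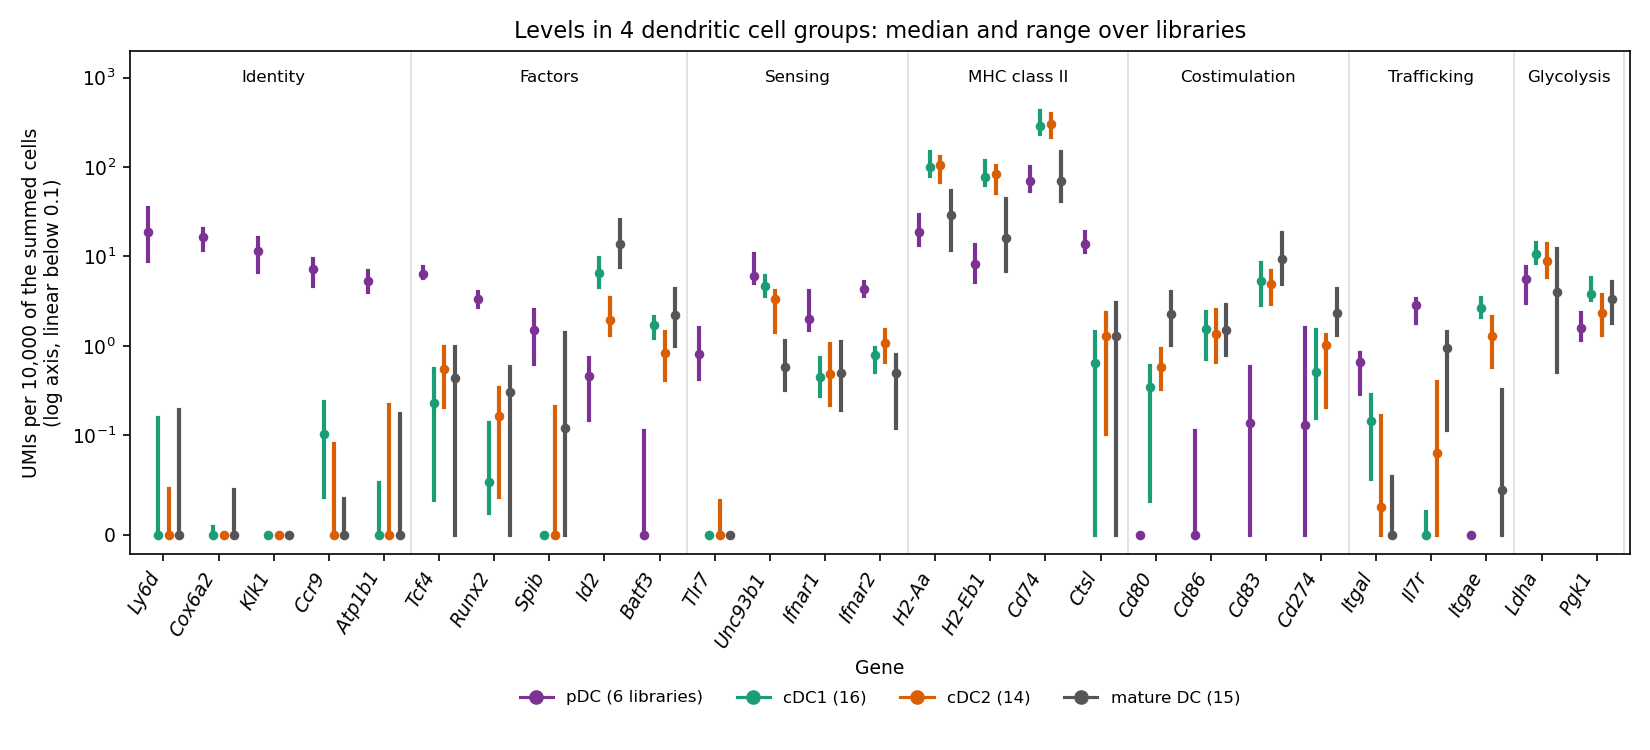
Level of 27 genes in 7 groups in pDCs (6 libraries), cDC1 (16), cDC2 (14) and mature dendritic cells (15), in UMIs per 10000 on a symmetric log axis. Points are medians over libraries and lines run from the lowest to the highest library. Tcf4 in pDCs lies between 5.69 and 7.69, above all other libraries, while H2-Aa in pDCs lies between 13.5 and 29.1 and its medians in cDC1 and cDC2 are 100 and 105.

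Of 18 tested transcription factors, 10 were higher in pDCs in each comparison, and 4, 4 and 5 were lower against cDC1, cDC2 and mature cells. Over all genes 15.2%, 11% and 17.5% were higher and 16.4%, 14.9% and 17.4% lower, so the 4 lower against cDC1 were not far above that share. Tcf4 was at 5.69, 6.31 and 7.69 in pDCs, against medians of 0.228, 0.551 and 0.433 in the other groups (4.55 ± 0.23, 3.31 ± 0.24 and 3.74 ± 0.24, adjusted P = 4.54e-20, 7.63e-15 and 1.81e-16, edgeR). No other library reached the lowest pDC library. Spib, an ETS family factor of pDCs and B cells, was at 0.632, 1.49 and 2.49 and had 0 UMIs in cDC1, which made it at least 622-fold higher in pDCs. Runx2, a factor for pDC exit from bone marrow, was at 2.74, 3.38 and 3.99 (5.70, 4.22 and 3.52 on the log2 scale), and Bcl11a, which acts upstream of Tcf4, at 1.92, 3.90 and 4.93 (4.34, 3.27 and 7.13).

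Irf8 followed another order. It was at 16.5, 19.8 and 24.5 in pDCs, against medians of 17.6 in cDC1, 0.470 in cDC2 and 9.89 in mature cells. pDCs and cDC1 overlapped (-0.12 ± 0.22, adjusted P = 0.719, edgeR), whereas Irf8 was called higher than in cDC2 (4.99 ± 0.24) and mature cells (0.75 ± 0.22), with no overlap with cDC2 and an overlap with mature cells. Irf7 was at 1.26, 2.29 and 5.08 in pDCs, and was called at 1.57 ± 0.41, 1.47 ± 0.43 and 3.37 ± 0.49. Its highest value was that of the Percoll library of Anti-CTLA-4, where the cell with interferon-alpha UMIs held 14 Irf7 UMIs. Id2, the inhibitor that opposes E2-2 and marks conventional dendritic cells, was at 0.147, 0.456 and 0.738 in pDCs, against medians of 6.53, 1.97 and 13.6, and was lower in each comparison (-4.03 ± 0.30, -2.54 ± 0.32 and -5.24 ± 0.30). Batf3, a factor of cDC1, had 2 UMIs over all 142 pDCs.

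Of 20 tested genes of nucleic acid sensing, 4, 6 and 9 were higher and 4, 5 and 3 lower against cDC1, cDC2 and mature cells, and 6, 6 and 8 were higher and 3, 3 and 3 lower without the cells over 10000 UMIs. Against cDC1 the count of 4 in each direction was near the 15.2% and 16.4% of all genes. Against cDC2 11% of all genes were higher and 14.9% lower. Against mature cells 17.5% were higher and 17.4% lower, and the 3 lower sensing genes were near the latter share. Tlr7, the endosomal sensor of single-stranded RNA, was at 0.422, 0.804 and 1.60 in pDCs, with 0, 1 and 0 UMIs in the other groups, at least 322-fold higher than in cDC1 and at least 77.6-fold higher than in mature cells. DESeq2 did not call it in any comparison, at adjusted P values of 0.226 to 0.399. Tlr7 was detected in 43.0% of pDCs, 12.2% of macrophages and 0.409% of epithelial cells. Tlr9, the DNA sensor, was detected in 21.8% of pDCs, 7.26% of macrophages and 0.285% of epithelial cells, and was too low to test.

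The genes that serve TLR7 and TLR9 did not all go one way. Slc15a4, a transporter of endosomes needed for their signaling, was higher in pDCs at 2.71 ± 0.37, 1.48 ± 0.37 and 2.04 ± 0.39, as was 5430427O19Rik, the gene of its partner TASL, at 2.75, 1.53 and 3.55. The 5430427O19Rik call against cDC2 (adjusted P = 0.0321, edgeR) was lost without doublets and cells with B cell genes and with no filter on low counts. Unc93b1, the chaperone that carries the receptors to endosomes, was at 5.06, 6.04 and 10.6 in pDCs. It was higher than in cDC2 (0.84 ± 0.17) and mature cells (3.12 ± 0.18) but not called against cDC1 (0.21, adjusted P = 0.357, edgeR) unless the cells over 10000 UMIs were left out. Irf5, a transcription factor downstream of these receptors for inflammatory cytokines, was at 0.352, 0.557 and 1.02 and was lower in each comparison (-2.75 ± 0.26, -1.71 ± 0.27 and -2.14 ± 0.27).

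Both chains of the type I interferon receptor were higher in pDCs than in each other group. Ifnar1 was at 1.52, 1.99 and 4.06, against medians of 0.446, 0.486 and 0.503 (1.90 ± 0.26, 1.94 ± 0.28 and 1.74 ± 0.28, adjusted P = 1.09e-07, 5.13e-07 and 2.33e-06, edgeR). Ifnar2 was at 3.57, 4.31 and 5.22, against 0.796, 1.09 and 0.503 (2.11 ± 0.18, 1.64 ± 0.19 and 2.69 ± 0.20). Ifngr1, a chain of the receptor for interferon-gamma, was at 0.290, 0.557 and 1.36 and was lower than in cDC1 (-2.10 ± 0.30) and cDC2 (-2.58 ± 0.30). It was not called against mature cells (0.49 ± 0.35, adjusted P = 0.304, edgeR).

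Of 43 tested interferon-stimulated genes, 12, 3 and 12 were higher and 4, 7 and 4 lower against cDC1, cDC2 and mature cells. Without the cells over 10000 UMIs the counts fell to 6, 2 and 8 higher, with 3, 5 and 7 lower of 42. The 3 higher against cDC2 were a smaller share than the 11% of all genes and the 7 lower were near 14.9%, and the 6 higher against cDC1 without those cells were near 12.4%. Ifi27l2a was at 2.49, 6.24 and 12.6 and was higher in each comparison (3.96, 0.94 and 2.98). Sp100, a nuclear body protein, was also higher in each, at 1.42, 0.96 and 1.95. Isg15 was not called against cDC1 (0.13) or mature cells (-0.96) and was lower than in cDC2 (-1.65, adjusted P = 0.0204, edgeR), a call lost without the cells over 10000 UMIs.

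MHC class II genes were lower in pDCs than in conventional cells. Of 15 tested genes of this pathway, 11 were lower and 3 higher against cDC1, 13 lower and 1 higher against cDC2, and 5 lower and 5 higher against mature cells, with median log2 fold changes of -1.98, -2.12 and -0.03. H2-Aa, a chain of the class II molecule, was at 13.5, 18.6 and 29.1 in pDCs, against medians of 100, 105 and 29.1 (-2.76 ± 0.19, -2.78 ± 0.20 and -0.95 ± 0.18, adjusted P = 2.01e-15, 4.2e-15 and 3.47e-05, edgeR). Cd74, the invariant chain, was at 53.8, 69.2 and 99.0, against medians of 287, 305 and 70.1, and was lower than in cDC1 (-2.39 ± 0.16) and cDC2 (-2.35 ± 0.16). Ciita, the master activator of class II genes, had 18 UMIs over all pDCs and was called at -3.17 and -2.68 against cDC1 and cDC2. The pDCs overlapped mature cells in H2-Aa and Cd74.

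Ctsl, a protease of endosomes that cleaves the invariant chain, went the other way. It was at 11.2, 13.7 and 18.6 in pDCs, against medians of 0.636, 1.29 and 1.29 (4.21 ± 0.42, 3.09 ± 0.41 and 3.39 ± 0.41). Of 19 tested class I presentation genes, 2, 2 and 1 were higher and 8, 2 and 9 lower, and the 2 higher against cDC2 were near the 11% of all genes. Tap1, a chain of the peptide transporter, was lower than in cDC1 (-1.79), and H2-T23, a nonclassical class I gene of a family of similar copies, was higher in each comparison (1.26, 0.97 and 0.86).

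Of 21 tested costimulatory ligands and receptors, 7, 10 and 12 were lower and 4, 4 and 5 higher against cDC1, cDC2 and mature cells, beside 16.4%, 14.9% and 17.4% of all genes lower and 15.2%, 11% and 17.5% higher, so the 4 higher against cDC1 were near the share of all genes. Over all 142 pDCs Cd80 had 1 UMI, Cd86 had 3 and Cd40 had 3, and these genes encode costimulatory proteins that activated dendritic cells show to T cells. Cd83, a surface protein of activated dendritic cells, was at 0, 0.139 and 0.587, against medians of 5.35, 4.94 and 9.30 (-5.07 ± 0.32, -4.90 ± 0.32 and -5.90 ± 0.32). Cd274, the gene of PD-L1, was at 0, 0.131 and 1.58 and was lower in each comparison, at a log2 fold change of -1.42 against cDC1 and -3.44 against mature cells, with the highest pDC library above the median of cDC1. In cells thinned to 1000 UMIs its calls against cDC1 and cDC2 were lost, and without doublets and cells with B cell genes that against cDC1 was lost. Cd47, the signal that restrains phagocytes, was higher in each, at 5.89, 8.05 and 8.59 (1.20 ± 0.12, 0.86 ± 0.12 and 0.54 ± 0.12). Of the receptors targeted in the study, Pdcd1 had 0 UMIs and Ctla4 had 2 UMIs over the 142 pDCs.

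Ccl4 was the cytokine that stood out. It was at 11.3, 26.5 and 58.7 in pDCs, against medians of 2.14, 3.78 and 0.0448 (3.09 ± 0.40, 2.39 ± 0.42 and 8.45 ± 0.56), and was found in 82.4% of pDCs, 51.6% of macrophages, 41.9% of T cells and 6.18% of epithelial cells. The highest value was that of the Percoll library of Anti-CTLA-4, where the cell with interferon-alpha UMIs held 125 Ccl4 UMIs. The other genes of this list were mostly lower or not called. Of all 15 tested, Ccl4 among them, 1, 1 and 3 were higher and 6, 5 and 6 lower. Over all genes 15.2%, 11% and 17.5% were higher and 16.4%, 14.9% and 17.4% lower. The 3 higher against mature cells were thus near the share of all genes. Cxcl16, the ligand of CXCR6 on T cells, had 4 UMIs over all pDCs and was called lower at -6.39, -5.98 and -7.52. Il12b, a subunit of interleukin 12, had 0 UMIs, against 1854 in cDC1 and 2304 in mature cells. Gzmb, the cytotoxic protease that pDCs are known to be able to make, had 4 UMIs in 3 of the 142 cells.

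Of 22 trafficking receptors tested, 12, 9 and 12 were higher and 4, 6 and 4 lower, and the 4 lower against cDC1 and against mature cells were near the 16.4% and 17.4% of all genes. Itgal, the integrin chain of LFA-1, was at 0.290, 0.655 and 0.822 and was higher at 1.64 ± 0.41, 3.78 ± 0.51 and 5.43 ± 0.62. Itgae, the CD103 integrin chain of cDC1, had 2 UMIs over all pDCs.

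Of 25 secretory pathway genes, 4, 7 and 14 were higher and 1, 2 and 1 lower, and the 4 against cDC1 were near the 15.2% of all genes. Xbp1, the transcription factor that expands the endoplasmic reticulum of secreting cells, was at 2.35, 3.58 and 5.43 in pDCs, against medians of 0.946, 1.26 and 0.575, and was higher in each comparison (1.61 ± 0.22, 1.32 ± 0.23 and 2.19 ± 0.24). Edem2, which directs misfolded glycoproteins to degradation, was also higher in each, at 1.37 against cDC1 and 1.91 against mature cells.

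Cell cycle genes were lower than in conventional cells. Of 20 tested, 13, 9 and 2 were lower and 0 higher in each comparison, where the 2 against mature cells were a smaller share than the 17.4% of all genes, and 3 of the 142 pDCs held 2 or more UMIs of the proliferation genes Mki67, Top2a and Birc5 together. Of these 3 cells, that of 32161 UMIs held 68 such UMIs and was called a doublet. H2afz, a histone variant on this list, was at 3.58, 4.23 and 21.7 in pDCs, against medians of 17.5, 19.7 and 14.6 (-1.95, -2.10 and -1.63). The highest pDC library overlapped the other groups for this gene.

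Glycolysis and hypoxia genes were lower than in conventional cells, with 12, 13 and 6 lower and 0, 0 and 2 higher of 20. Over all genes 16.4%, 14.9% and 17.4% were lower and 15.2%, 11% and 17.5% higher. Pgk1, a glycolytic kinase, was at 1.16, 1.60 and 2.35, against medians of 3.84, 2.33 and 3.32 (-1.59 ± 0.23, -0.78 ± 0.23 and -1.24 ± 0.23). Ldha, lactate dehydrogenase, was lower than in cDC1 (-1.32) and cDC2 (-1.04) but not called against mature cells (0.07). Early-response and heat shock genes, which also move with tissue dissociation, had 3, 4 and 8 higher and 8, 9 and 8 lower of 33. The 4 higher against cDC2 were near the 11% of all genes, and against mature cells the list went equally both ways. Without the cells over 10000 UMIs 2, 1 and 2 were higher and 17, 20 and 17 lower, where 16.3%, 15.4% and 19.4% of all genes were lower.

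Endothelial genes also passed the test, with 5, 4 and 6 of 6 higher. DESeq2 did not call Cdh5, Kdr or Plvap in any of the 3 comparisons, nor Egfl7 against cDC1 and mature cells or Flt1 against mature cells. Plvap, a protein of endothelial fenestrae, had 49 UMIs in 2.82% of the pDCs and was no longer tested without the cells over 10000 UMIs, when 2, 1 and 2 of 2 remaining endothelial genes were called. Cdh5, a junction protein of endothelium, was found in 38.7% of pDCs with 96 UMIs, and was at 0.422, 0.875 and 2.71 in the pDC libraries. Of the cells over 10000 UMIs, that of 26794 UMIs held 166 of the 177 endothelial UMIs, and its values are given beside the treatment results in which it led.

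**Figure D3:**
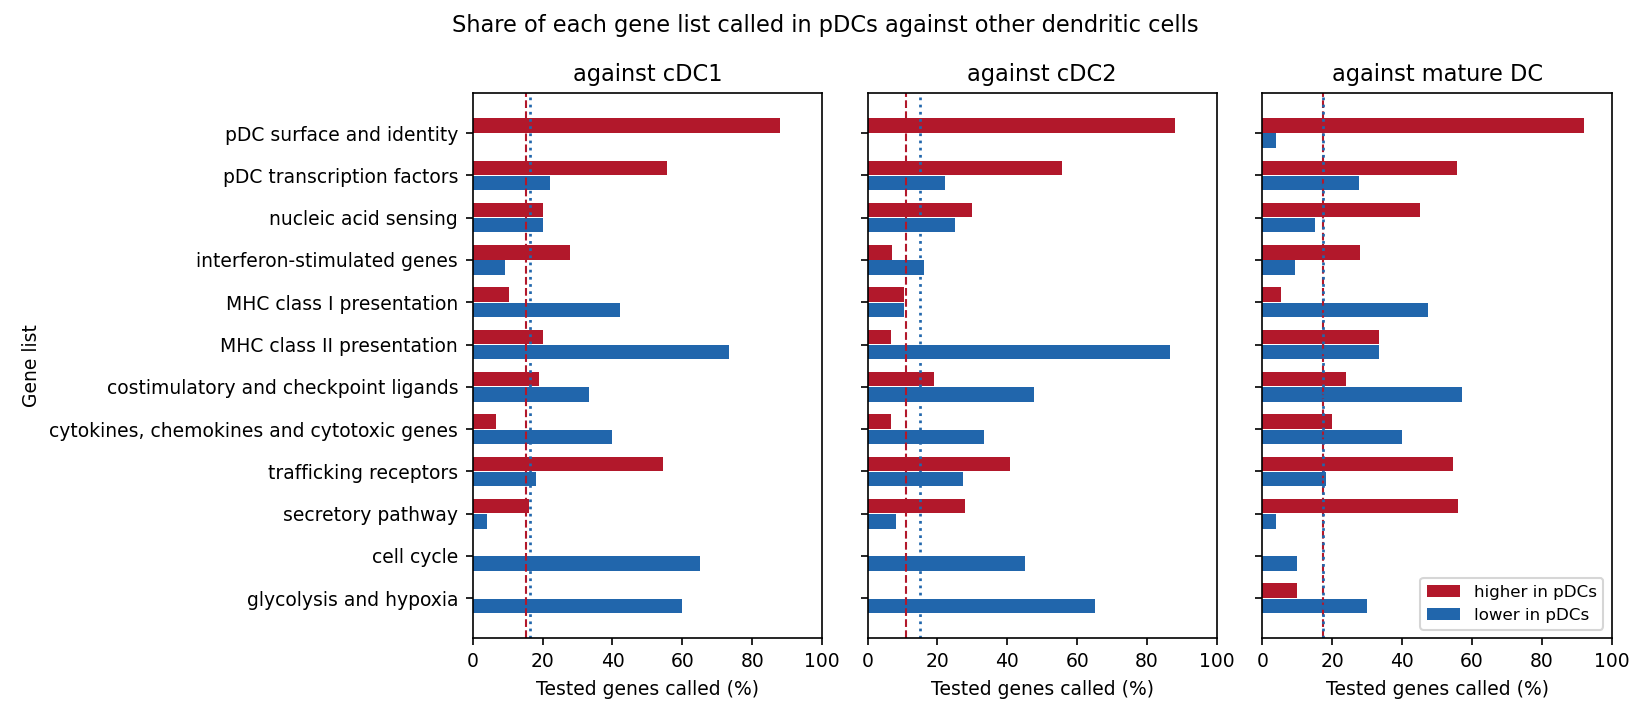
Percent of tested genes in 12 lists that were called higher (red) or lower (blue) in pDCs than in cDC1, cDC2 and mature dendritic cells. The lines give the share over all 6571 genes, 15.2%, 11% and 17.5% higher and 16.4%, 14.9% and 17.4% lower. The pDC surface bars and the blue class II bars against conventional cells stand far above the lines.

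Next, the share of pDCs was compared between treatments over the 8 pools, each the mean of the 2 libraries of a treatment, with an exact two-sided permutation test over 70 splits whose smallest P is 0.0286. The shares were 0.124% in Isotype Control, 0.0902% in Anti-PD-1, 0.124% in Anti-CTLA-4, 0.0712% in Anti-PD-1 + Anti-CTLA-4, 0.123% in PancVAX, 0.139% in PancVAX + Anti-PD-1, 0.159% in PancVAX + Anti-CTLA-4 and 0.111% in PancVAX + Anti-PD-1 + Anti-CTLA-4. Pools with PancVAX averaged 0.133% ± 0.0208 (SD, n = 4) and pools without 0.102% ± 0.0262, and the ranges overlapped (exact permutation P = 0.171, adjusted P = 0.4 over 4 share tests). Pools with anti-PD-1 averaged 0.103% ± 0.0291 and pools without 0.132% ± 0.0178 (exact permutation P = 0.2, adjusted P = 0.4). Pools with anti-CTLA-4 averaged 0.116% ± 0.0363 and pools without 0.119% ± 0.0206 (exact permutation P = 0.971).

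Within whole tumor libraries the share was 0.141% with PancVAX and 0.0973% without (exact permutation P = 0.0857, adjusted P = 0.257), and within Percoll libraries 0.125% and 0.107% (exact permutation P = 0.457). For anti-PD-1 it was 0.116% and 0.123% within whole tumor (exact permutation P = 0.714). Within Percoll it was 0.0902% with anti-PD-1 and 0.142% without, a split at the smallest P the design allows (exact permutation P = 0.0286, adjusted P = 0.0857). The effect of anti-PD-1 was not shown to differ between preparations (exact permutation P = 0.143, adjusted P = 0.429). The share was not shown to differ between preparations. It was 0.116% ± 0.0307 (SD, n = 8) after Percoll and 0.119% ± 0.0354 without it, higher in Percoll in 3 of 8 treatments (exact paired permutation P = 0.844, adjusted P = 0.971).

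**Figure D4:**
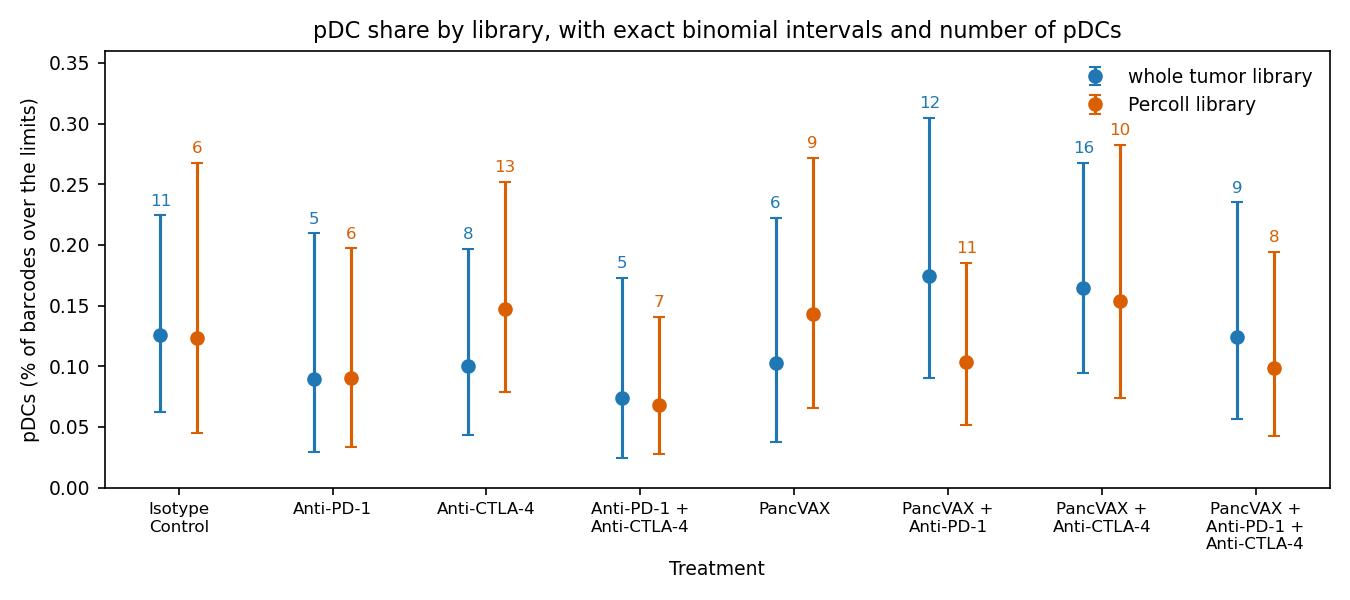
Percent of barcodes over the limits that were pDCs in each of the 16 libraries, by treatment (blue, whole tumor; orange, Percoll). Bars are exact 95% binomial intervals, which cover counting error only, and the numbers are pDCs, from 5 to 16 in a library. The intervals of all 16 libraries overlap.

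Gene expression of pDCs was then compared over the same 8 pools. With edgeR, 0 of 2202 genes (0%) were called for PancVAX, for anti-PD-1 or for anti-CTLA-4, with 99, 99 and 63 genes at an unadjusted P below 0.05. DESeq2 called 0, 1 and 0 genes, with 32, 24 and 15 at an unadjusted P below 0.05. On simulated counts for the PancVAX comparison, 23% of genes changed 2-fold and 80% of genes changed 4-fold were called, so changes of the smaller size were mostly not detectable at this depth. Leaving out the PancVAX pool gave 30 and 18 calls for PancVAX and anti-PD-1.

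Single genes that bear on pDC function ran as follows. Ccl4 was at 20.4, 71.3, 47.7 and 37.1 per 10000 in the pools without PancVAX (Isotype Control, Anti-PD-1, Anti-CTLA-4 and Anti-PD-1 + Anti-CTLA-4) and at 22.4, 28.8, 21.5 and 14.6 in the matching pools with it. Its log2 fold change with PancVAX was -0.98 ± 0.31 (adjusted P = 0.919, edgeR), and the groups overlapped. Of the Ccl4 UMIs in Anti-CTLA-4, 125 came from the cell with interferon-alpha UMIs. Tcf4 was at 6.61 ± 0.655 (SD, n = 4 pools) with PancVAX and 8.41 ± 1.63 without (adjusted P = 0.954, edgeR). These values include the cells over 10000 UMIs, which were low in pDC markers as a group. All of those cells but that of 32161 UMIs, in Isotype Control, lay in pools with PancVAX.

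Cxcl9, the interferon-gamma-induced ligand of CXCR3, had 67 UMIs with PancVAX and 0 without. The UMIs lay in 3 of the 4 pools with PancVAX, at 3.38, 0.0407 and 1.18 per 10000, with 0 in the PancVAX pool, and the gene was not called (adjusted P = 0.901, edgeR). They came from 5 cells, and 1 Percoll cell of 26794 UMIs in PancVAX + Anti-PD-1 held 52 of them, the cell that also held 166 endothelial UMIs. Cells of at most 10000 UMIs held 3 of the 67. H2-Aa was at 24.8 ± 8.16 with anti-CTLA-4 and 16.9 ± 4.66 without, and Ccr9 at 5.56 ± 1.24 with anti-CTLA-4 and 8.30 ± 1.40 without. Neither gene was called for anti-CTLA-4, both at an adjusted P of 1 (edgeR).

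No gene of any list was called for a treatment. With PancVAX the median log2 fold change was -0.23 over the surface and identity list, 0.06 over interferon-stimulated genes, -0.02 over class II genes and 0.48 over early-response genes, beside 0.01 over all genes. The summed surface and identity genes were at 196 to 304 per 10000 with PancVAX and 225 to 324 without. Leaving out cells over 10000 UMIs, they were at 220 to 304 and 286 to 324. The summed early-response genes rested on deep cells, at 131 to 240 per 10000 with PancVAX and 109 to 141 without, but 111 to 139 and 109 to 141 without cells over 10000 UMIs. With anti-PD-1 the median log2 fold change was 0.55 over the 12 interferon-stimulated genes tested, and with anti-CTLA-4 it was 0.35 over the 11 class II genes tested, beside -0.01 over all genes in both comparisons. The summed interferon-stimulated genes were at 54.5 to 94.1 per 10000 with anti-PD-1 and 57.8 to 74.8 without. Leaving out cells over 10000 UMIs, they were at 54.5 to 69.3 and 57.3 to 74.8. In PancVAX + Anti-PD-1 the cell of 26794 UMIs held 606 of the 1475 UMIs of this list. Of 15 lists summed by pool, 2 did not overlap between pools with and without PancVAX. Summed cytokine and chemokine genes were at 22.5 to 37.7 per 10000 UMIs with PancVAX and 39.9 to 78.8 without. Ccl4 gave most of these UMIs over all pools together, although Ccl4 alone overlapped between the pools with and without PancVAX. The summed list of transitional dendritic cell genes, such as the receptor kinase Axl, was at 5.94 to 7.16 with PancVAX and 3.27 to 5.71 without, and overlapped when the top cell of each pool was left out (4.58 to 6.66 and 2.67 to 5.14). These sums are descriptions with no test, and 0% of single genes were called.

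Single cells set several of the extremes. Class II genes summed to 245 per 10000 UMIs in the PancVAX + Anti-PD-1 + Anti-CTLA-4 pool and 125 to 142 in the other pools with PancVAX, and 1 Percoll cell gave 22.5% of the former, which was 207 without it. That cell, chosen by 5 Siglech and 13 Bst2 UMIs, had 1 UMI of Tcf4 and none of Irf8, Ccr9, Ly6d, Cox6a2 or Ly6c2, so its other markers went against the pDC label. In other pools, the pDCs of 4721, 5941, 6071 and 6285 UMIs also had none of Irf8, Ccr9 or Cox6a2. Without cells over 10000 UMIs the class II sum of PancVAX + Anti-PD-1 + Anti-CTLA-4 was 267, and that of PancVAX + Anti-CTLA-4 rose from 142 to 219. Interferon-stimulated genes summed to 54.5 to 94.1 over the 8 pools, and the highest, PancVAX + Anti-PD-1, was 66.9 without the same cell of 26794 UMIs and 166 endothelial UMIs. Cell cycle genes summed to 45.7 in Isotype Control and 9.80 to 10.9 in the other pools without PancVAX, and 80% of those UMIs came from 1 cell of 32161 UMIs that Scrublet called a doublet, without which the pool was at 12.3.

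**Figure D5:**
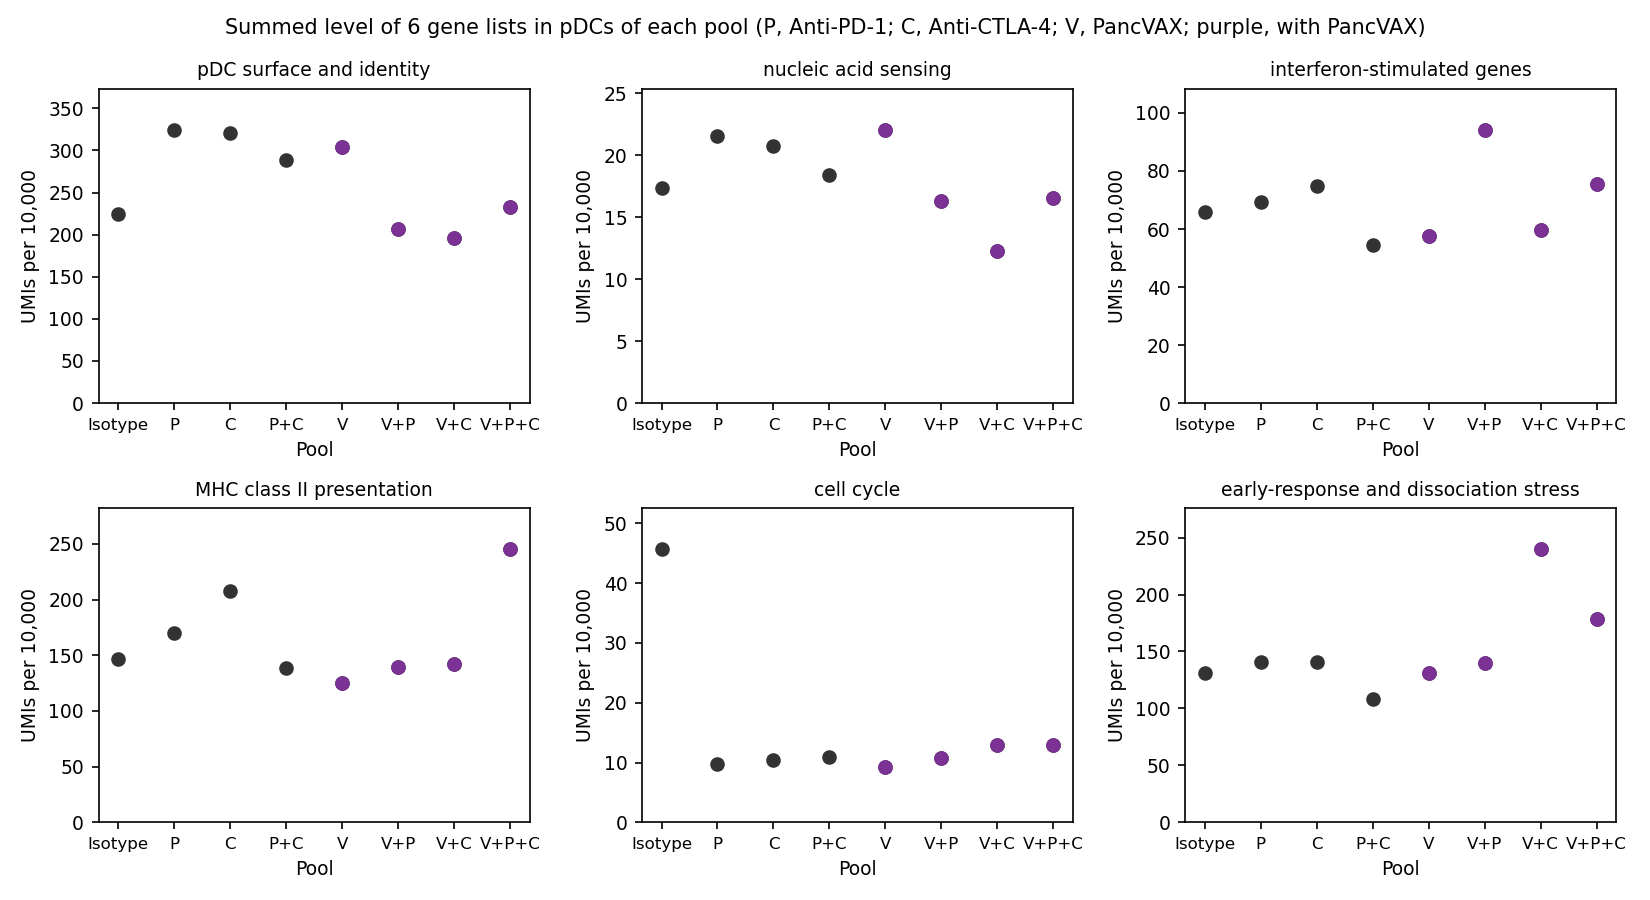
Summed level of 6 gene lists in the pDCs of each of the 8 treatment pools, in UMIs per 10000 (purple, pools with PancVAX). In each of these 6 lists the pools with PancVAX overlap those without it, and the Isotype Control value of 45.7 for cell cycle genes rests mostly on 1 cell.

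Between preparations, 6 libraries had at least 10 pDCs, with both libraries of 2 treatments, which left 1 residual degree of freedom. With edgeR 0 of 2339 genes (0%) were called, with 122 at an unadjusted P below 0.05, and DESeq2 called 0 with 7. With all 16 libraries, a minimum of 5 pDCs that was an alternative setting, 3 of 1379 genes (0.218%) were called. One of them, mt-Atp6, is among the mitochondrial genes by which the cells were limited and is not a result, and the median mitochondrial share of pDCs was 2.23% to 3.55% in Percoll and 2.41% to 5.28% in whole tumor libraries. Clec2d, the ligand of an NK cell receptor, averaged 0.256 per 10000 in Percoll and 2.01 in whole tumor libraries (-2.90 ± 0.49). Nfkbia, the inhibitor of NF-kappaB induced by its activation, averaged 7.12 and 2.35 (1.49 ± 0.28, adjusted P = 0.0392, edgeR).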

How the data were processed

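Single-cell 5′ RNA libraries from 10x Genomics were analysed for 16 samples. The authors aligned reads to mm10 with Cell Ranger 4.0.0, per the submitters' processing notes and methods, and deposited raw counts of UMIs per gene and barcode, so no normalization precedes the values used here. The annotation release was not given in the sources used here. T cell receptor contig lists were deposited for the Percoll libraries, with read and UMI counts per contig made by the authors, and were used only to count barcodes with a contig.

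Of 144994 deposited barcodes, 83.4% had at least 1000 UMIs and under 10% mitochondrial UMIs. The members and all gene lists were chosen with earlier results of these data known, and the lists describe rather than support. cDC1, cDC2 and mature cells were set by UMIs of Xcr1 and Clec9a, of Cd209a, and of Ccr7, Fscn1 and Ccl22. T cells had 2 or more Cd3 UMIs, macrophages C1q at the limit and epithelial cells 2 or more UMIs of Krt8 and of Krt18. UMIs were summed per library and group, or per treatment pool, and tested with edgeR 4.0.16 (TMM scaling, filterByExpr, quasi-likelihood F test, Benjamini-Hochberg adjustment over all genes tested) in R 4.3.3, with DESeq2 1.42.0 as an alternative. Dendritic groups were compared with library as a block. Treatments were fitted over 8 pools with all 3 agents as terms, and preparations with treatment as a block. Shares used exact permutation tests in SciPy 1.17.1. Doublets were called with Scrublet in scanpy 1.11.5 at an expected rate of 8%, and none were removed in the values given first. For lower bounds, a gene at 0 UMIs in a group was set to 3 counts over that group. Intervals cover counting error only. Named genes were list members that passed the call rule (at most 10 per direction and list), the markers, the largest changes past the threshold for treatments and preparations, and the interferon genes. Genes named for low UMIs, for a missed call or from the producing cell were chosen after their values were seen. The fits were tested on simulated counts, which recovered 28% of 2-fold and 77.5% of 4-fold changes against cDC1. pDCs are few, 5 to 16 per library, and this sets the precision of every value. Whether both libraries of a treatment came from the same mice is not given, so P values measure the spread between pooled samples.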

Additional observations from a re-analysis of the deposited data

Results flagged for a closer look

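Of 38 groups, each of 4 pools or of the libraries of a preparation, 5 held a value that stood apart by Dixon's criterion at the 95% level. Chance alone meets this in about 1 in 20 groups, and the groups reuse the same 8 pools, so they are not independent. The pDC share of PancVAX + Anti-CTLA-4, 0.159%, stood apart from the other 3 pools without anti-PD-1, which lay between 0.123% and 0.124%. The summed level of pDC transcription factors was 66.0 per 10000 UMIs in the PancVAX pool and 50.0 to 51.6 in the other pools with PancVAX, or 52.3 to 59.5 without cells over 10000 UMIs, of which the PancVAX pool had none. Interferon ligand and receptor genes summed to 30.1 in the Anti-CTLA-4 pool, which holds the cell with interferon-alpha UMIs and was at 10.1 without it, and 7.68 to 10.4 in the other pools without PancVAX. MHC class II genes summed to 245 in PancVAX + Anti-PD-1 + Anti-CTLA-4 against 125 to 142 in the other pools with PancVAX, and to 207 without its highest cell, which lacked Irf8, Ccr9, Ly6d and Cox6a2. Without cells over 10000 UMIs it was 267, and PancVAX + Anti-CTLA-4 was at 219. Cell cycle genes summed to 45.7 in Isotype Control and to 12.3 without 1 cell of 32161 UMIs that was called a doublet.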

How the results depend on the processing

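Counts of pDCs set what could be seen. The share differences of PancVAX and anti-PD-1 kept their direction under the alternatives run, with sizes of 0.00768 (the study's limits) to 0.0505 (a mitochondrial limit of 5%) and -0.0973 (share of Ptprc-positive barcodes) to -0.00484 (at least 1 Siglech UMI). Asking for at least 1 Siglech UMI added 33 barcodes, of which 30.3% had a Ccr9 UMI and 45.5% a Tcf4 UMI. It raised the Percoll library of PancVAX + Anti-PD-1 from 11 to 23 cells. In that setting the vaccine difference had an exact permutation P of 0.0286 (adjusted P = 0.114). The anti-PD-1 difference had these same P values with at least 3 Siglech UMIs, with the study's limits and without the PancVAX + Anti-PD-1 pool. That of anti-CTLA-4, -0.00270 percentage points, was 0.0123 with the study's own cell limits, 0.0449 as a share of Ptprc-positive barcodes and 0.00195 in Percoll libraries alone, and -0.0170 to 0.0123 with a pool left out. The Percoll difference, -0.00334, was 0.00661 with cells thinned to 1000 UMIs, 0.00164 and 0.0141 with at least 3 or 1 Siglech UMIs, 0.0218 with the study's limits, 0.00941 with a mitochondrial limit of 5% and -0.0106 to 0.00635 with a pool left out. With no filter, 59, 43 and 30 genes were called for the vaccine, for anti-PD-1 and for anti-CTLA-4 and 31 between preparations, and with a pool left out 0 to 30, 0 to 18, 0 to 1 and 0 to 1. DESeq2 called 1 gene for anti-PD-1, and RLE scaling 1 and at least 5 pDCs per library 3 between preparations. Without the treatment block (no replicate block) 0 of 1370 genes were called. With the 16 libraries kept apart and preparation, which the replicate numbers follow, as a block, 0 of 1070 genes were called for the vaccine, for anti-PD-1 and for anti-CTLA-4 (96, 68 and 50 at an unadjusted P below 0.05). Against cDC1, cDC2 and mature cells, 279, 250 and 366 genes were called in thinned cells and 728, 791 and 1309 with the study's limits, where fewer genes were tested. Log2 fold changes that reversed were Hspa1a against cDC1 (0.78), Psmb9 against cDC2 (0.085) and Eno1 against mature cells (0.41) with the study's limits, and Ogn against cDC2 (-5.71), Fosb (-0.80) and Jund (-0.090) against mature cells without pDCs over 10000 UMIs, an alternative chosen after seeing the data, as was a minimum of 5 cells per library and dendritic group. Of 465 genes called higher in all 3 dendritic comparisons, 359 (77.2%) were called without the pDCs over 10000 UMIs, and of 313 lower, 217 (69.3%). DESeq2 called 1262 genes higher and 764 lower against cDC1, 871 and 680 against cDC2 and 1315 and 921 against mature cells. Among the named genes it lost calls for some near 0 UMIs in the other group and for others with small changes, such as Eno1 and Itgb2, and the cause was not tested. Preparation fits with at least 3 Siglech UMIs, the study's limits, doublets removed or most pools left out could not be fitted.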
